A study of Mus musculus with 38 samples.

Results

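The genes described here are targets of the nuclear receptor PPARalpha together with the enzymes of fatty acid oxidation in liver, a list of 34 genes chosen by name and function. Platform annotation named a probe for 33 of them among 22485 genes measured, and Acsl1, a long-chain acyl-CoA synthetase, was not named by it. Where a gene had several probes, the probe with the highest mean stood for it. The expression values are log2 intensities of single dye channels on two-colour Agilent arrays, and a change is a difference of log2 values ± SE from limma.

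All livers were from males, 11 to 12 weeks old, of a mixed FVB/N-C57Bl/6 strain. In LIRKO mice the insulin receptor gene was deleted in hepatocytes by Cre recombinase under the albumin promoter. In LIRFKO mice the gene of FoxO1, a transcription factor that insulin holds in check, was deleted as well. Their controls carried the floxed alleles without that deletion, as IR floxed mice for LIRKO and IR/FoxO1 floxed mice for LIRFKO. Mice were fasted, which the labels give both as overnight and as 24 h, and were studied in that state, after 6 h of refeeding, or 60 min after glucose. IR floxed livers were 4 fasted, 4 refed and 3 given glucose, and LIRKO and LIRFKO livers were 3, 4 and 3 each. IR/FoxO1 floxed livers were 3 fasted and 3 refed, and no glucose group of that line was analysed here. A library name such as IR.KO_Fast_505 gives the genotype (fl for floxed, KO for knockout, IRF for the line with the FoxO1 allele), the state (GTT for glucose) and the number of the mouse. The deletion was directed at hepatocytes, and the state of both genes in other cell types of the liver was not tested.

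PPARalpha is a nuclear receptor that binds fatty acids, pairs with a retinoid X receptor and switches on genes for fatty acid uptake and burning, above all in the fasted liver. Long-chain fatty acids enter mitochondria as carnitine esters and are shortened there by beta-oxidation, while peroxisomes shorten very long chains and microsomal Cyp4a enzymes oxidise the far end of the chain. Insulin signalling, which keeps FoxO1 out of the nucleus, opposes the fasting programme after a meal.

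The receptor pair binds direct repeats of the half-site AGGTCA spaced by 1 base, and stretches near the start sites that come closest to this repeat are shown because the list was built around that receptor. RefSeq promoter windows on GRCm38.p6, each running from 250 bases before to 50 bases after a start, were present for 28 of the 34 listed genes (32 windows of 300 bases). The repeat of 2 half-sites AGGTCA with any 1 base between them was searched on both strands, counting matches among its 12 fixed letters. Sequences are written 5′ to 3′ along the gene's strand, and capitals mark the best match. At least 10 of 12 letters matched in 5 of the 32 windows (15.6%), against 3.86% of 32851 RefSeq windows of that length. At least 11 letters matched in 1 window (3.12% against 0.554% of all windows), and no member window held all 12 (0.0396% of all windows). The FoxO-type motif GTAAACA, searched on both strands, lay in 0 of the 32 windows and in 3.65% of all windows. A match of letters is a description of the sequence and was not tested as a binding site.
Fabp1, chr6:71199769-71199848, + strand, 11 letters: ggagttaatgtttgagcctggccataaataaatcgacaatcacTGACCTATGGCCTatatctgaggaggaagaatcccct
Cd36, chr5:17835927-17836006, - strand, 10 letters: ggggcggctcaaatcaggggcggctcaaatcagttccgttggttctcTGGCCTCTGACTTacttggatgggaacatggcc
Acot4, chr12:84038299-84038378, + strand, 10 letters: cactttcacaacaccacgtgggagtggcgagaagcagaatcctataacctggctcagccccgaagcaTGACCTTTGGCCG
Creb3l3, chr10:81092762-81092841, - strand, 10 letters: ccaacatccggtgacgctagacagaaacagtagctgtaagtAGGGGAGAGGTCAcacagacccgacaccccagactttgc
Slc25a20, chr9:108662142-108662154, + strand, 10 letters: AGGTGAAAGGTCG
The Slc25a20 match lies 7 to 19 bases after the start site and the others lie before it. The Creb3l3 stretch belongs to 1 start of that gene. At another of its starts, with the window chr10:81098823-81099122, the best match was 8 letters.

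Hadha and Hadhb encode the alpha and beta subunits of the mitochondrial trifunctional protein and are transcribed away from each other, with 272 bases between their start sites. Nearly all of the interval is shown because the 2 genes share it, as the + strand from 250 bases before the Hadhb start to its last base before that start. It has a GC content of 58.8%.
Hadhb, chr5:30155003-30155252, + strand: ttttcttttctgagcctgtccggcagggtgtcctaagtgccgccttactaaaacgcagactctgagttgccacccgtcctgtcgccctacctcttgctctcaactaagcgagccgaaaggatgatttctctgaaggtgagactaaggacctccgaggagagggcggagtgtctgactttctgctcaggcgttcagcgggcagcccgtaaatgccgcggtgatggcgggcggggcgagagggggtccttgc

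The values of the 37 grouped libraries had column medians from 5.72 to 5.78 and correlated within groups at 0.9759 to 0.9952. As a check of the labels, Insr had group means from 6.15 to 7.21 in both knockouts and from 7.52 to 8.57 in the controls, and Foxo1 from 6.33 to 6.92 in LIRFKO and from 9.17 to 10.5 in the other groups. The library labelled IRF.fl_Fast_523 goes against its label, with Foxo1 at 6.77 and Insr at 6.90, so values without it follow most results that rest on it. Values above 15.8 are called the top of the scale, whose highest value is 16. Fabp1, Cyp4a10, Cyp4a14 and Acaa2 had libraries there, so their differences may be compressed. The 10 hepatocyte markers checked averaged between 13.94 and 15.12 in every library, which is the upper end of the scale.

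Across the whole list, the typical member was lower in refed than in fasted livers of each genotype, and LIRKO livers averaged above IR floxed livers in each state. To put genes of different brightness together, each gene's values were taken as deviations from its mean over the 37 libraries, and the median over the 33 genes was taken in each library. IR floxed livers averaged -0.02 ± 0.21 (SD, n = 4) fasted, -0.36 ± 0.27 (n = 4) refed and 0.03 ± 0.25 (n = 3) after glucose. LIRKO livers averaged 0.28 ± 0.10 (n = 3), 0.07 ± 0.17 (n = 4) and 0.18 ± 0.11 (n = 3). IR/FoxO1 floxed livers averaged 0.16 ± 0.20 (n = 3) fasted and -0.35 ± 0.14 (n = 3) refed, and of the fasted values 0.06, 0.40 and 0.04 the highest is IRF.fl_Fast_523. LIRFKO livers averaged 0.23 ± 0.19 (n = 3), -0.11 ± 0.09 (n = 4) and 0.31 ± 0.24 (n = 3). Refed controls of both lines were the lowest groups, and refed LIRKO libraries (-0.14 to 0.23) overlapped refed IR floxed libraries (-0.64 to -0.07).

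**Figure D1:**
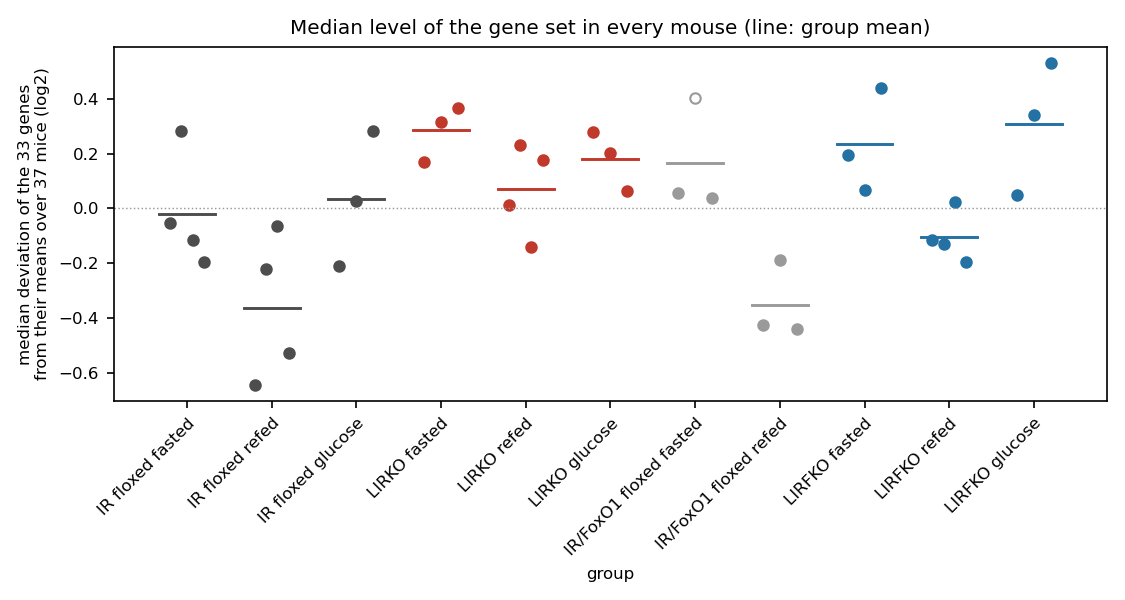
Median deviation of the 33 genes from their means, in log2 units, for each library (points; open for IRF.fl_Fast_523) with the group mean (line), by genotype and state. Refed IR floxed and IR/FoxO1 floxed livers lie lowest, with group means of -0.36 and -0.35.

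The first comparison asked how refeeding changed these genes in each genotype. In IR floxed livers 2 of 33 members fell and none rose (3.61% of all genes were called, 2.12% higher and 1.49% lower), with a median change of -0.30 and 30 members below 0. In IR/FoxO1 floxed livers 4 fell (3.54% of all genes, 2.02% higher and 1.52% lower), with a median of -0.47 and 32 below 0. In LIRKO livers 2 fell (1.85%, 0.983% higher and 0.867% lower), with a median of -0.22 and 30 below 0. In LIRFKO livers limma called 0 members (1.81% of all genes were called, 0.987% higher and 0.823% lower), 14 had an unadjusted p under 0.05, all lower, and the median was -0.40 with 31 below 0. The median over all genes was close to 0.00 in each of these comparisons, with 48.7% to 49.3% of genes above 0. Members whose refed values all lay below all fasted values numbered 3 in IR floxed (3.36% of all genes), 18 in IR/FoxO1 floxed (8.45%, and 18 against 15% without IRF.fl_Fast_523), 6 in LIRKO (6.06%) and 10 in LIRFKO (5.82%). Calls were made in 3 of the 4 genotypes, and no member passed the test of a difference in refeeding response between genotypes. For that difference limma called 0 members, with 0 at an unadjusted p under 0.05, between LIRKO and IR floxed (0.165% of all genes called), LIRFKO and IR/FoxO1 floxed (0.00445%) and LIRFKO and LIRKO (0.0222%).

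Single libraries decided which members passed on refeeding. Of the 2 calls in IR floxed livers, Cpt1a was the 1 kept without IR.fl_Fast_542, IR.fl_Refed_506 or IR.fl_Refed_508, and 0 were kept without any of the other 5 mice. Other members passed in some of these fits, Cyp4a10 and Cyp4a14 without IR.fl_Refed_566, Pex11a without IR.fl_Fast_491 or IR.fl_Refed_508, and Slc22a5 without IR.fl_Refed_506. Of the 4 calls in IR/FoxO1 floxed livers, 0 were kept without IRF.fl_Fast_523 or IRF.fl_Refed_473, 1 without IRF.fl_Fast_516 or IRF.fl_Refed_467, 2 without IRF.fl_Refed_472 and 3 without IRF.fl_Fast_533. Creb3l3 passed without IRF.fl_Refed_473 and Acadvl without IRF.fl_Fast_533. Without IRF.fl_Fast_523 the median stayed at -0.43. The 2 calls in LIRKO livers became 0 without IR.KO_Fast_505 or IR.KO_Fast_545 and 1 without IR.KO_Refed_558 or IR.KO_Refed_565. Within slides the median change was -0.29 and -0.88 in IR floxed, -0.54 in IR/FoxO1 floxed, -0.24 and -0.18 in LIRKO, and -0.09 in LIRFKO livers.

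**Figure D2:**
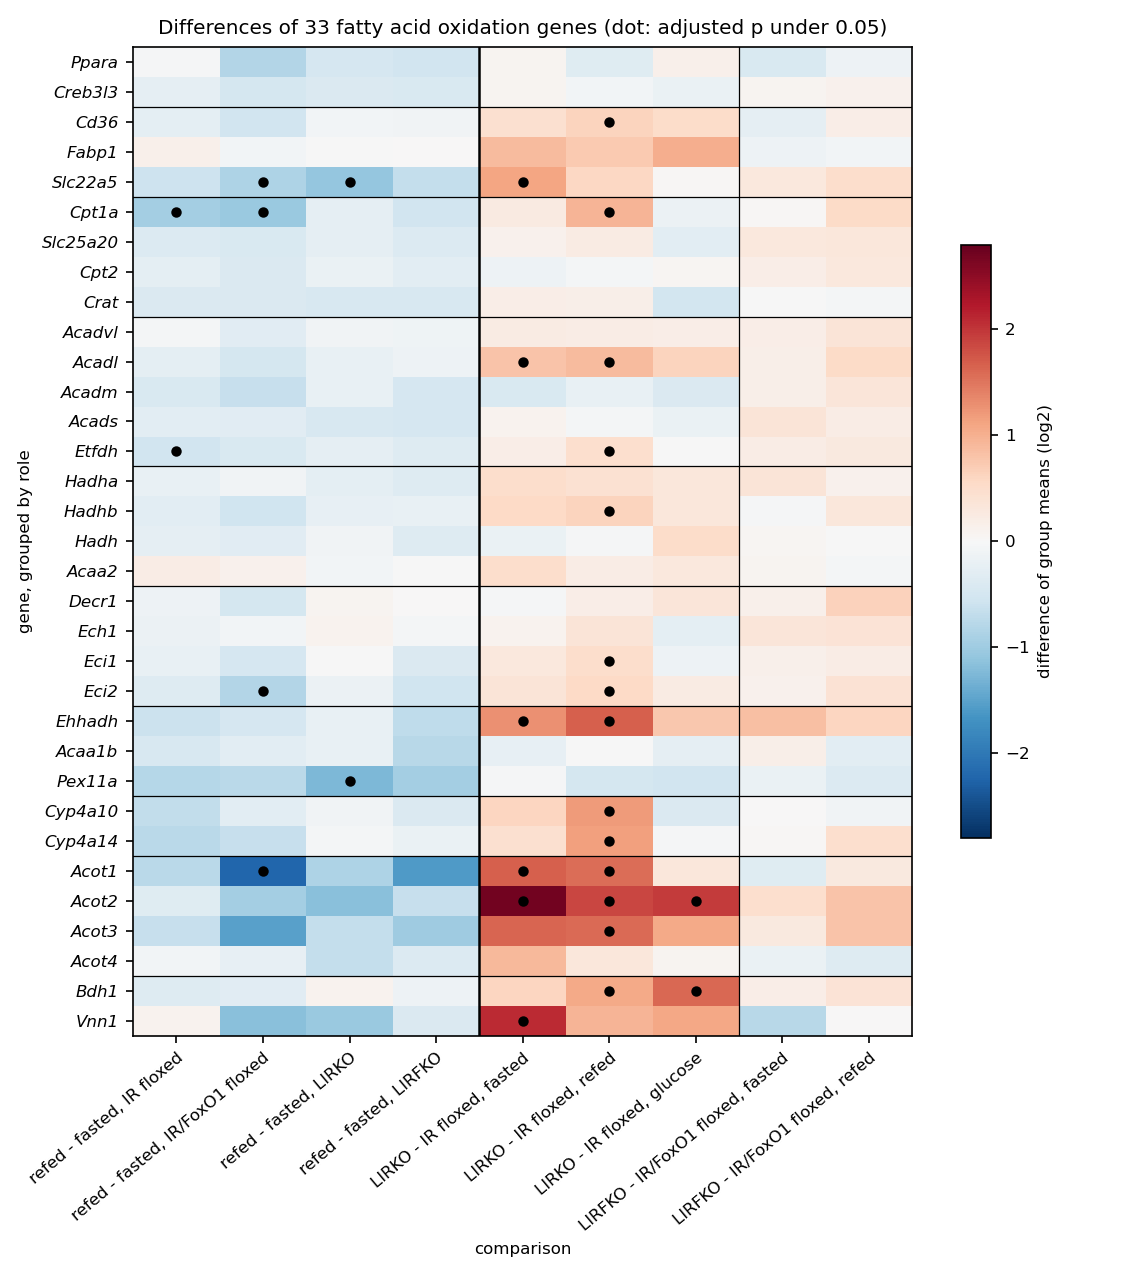
Change of each of the 33 genes in log2 units, one column per comparison and one line per gene, grouped by role (blue lower, red higher, dot for adjusted p under 0.05). In refeeding of IR floxed livers 30 of 33 lie below 0, and in refed LIRKO against IR floxed livers 25 lie above 0.

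Glucose for 60 min, compared with the same fasted mice that served the refeeding comparison, moved no member past the threshold. limma called 0 of 33 in IR floxed livers (0.16% of all genes, 0.142% higher and 0.0178% lower), with a median change of 0.04 and 3 members at an unadjusted p under 0.05. It called 0 in LIRKO (0.596% of all genes; median -0.18; 5 unadjusted) and 0 in LIRFKO livers (0.654%; median 0.07; 3 unadjusted). In IR floxed livers 2 members had all glucose values above all fasted values (2.79% of all genes). They were Acot1 at 1.86 ± 0.52 (adjusted p = 0.19) and Ehhadh at 1.19 ± 0.34 (adjusted p = 0.193). In LIRKO livers 2 members lay higher without overlap (5.11% of all genes), Ppara and Cpt2, and 4 lower (5.35%), Slc22a5, Slc25a20, Acaa2 and Acot3, from -1.05 to -0.47. The 2 probes of Cpt2 went opposite ways there, 0.22 for the probe used and -1.13 for the dimmer one, and neither was called. In LIRFKO livers 0 lay higher (6.58%) and 2 lower (6.5%), Acads at -0.66 ± 0.17 (adjusted p = 0.0592) and Creb3l3 at -0.21 ± 0.14 (adjusted p = 0.585). The glucose response of members did not pass a test of difference between LIRKO and IR floxed livers (0 called, 4 at an unadjusted p under 0.05, 0% of all genes called) or between LIRFKO and LIRKO livers (0 called, 4 unadjusted, 0.0578%).

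Part of the list was higher in LIRKO than in IR floxed livers. More members were called refed than fasted, but none passed the test of a difference in refeeding response between these genotypes. Fasted LIRKO livers had 6 of 33 members higher than fasted IR floxed livers and none lower (8.06% of all genes were called, 4.14% higher and 3.92% lower), with a median change of 0.35 and 27 above 0. Refed, 14 were higher and none lower (11.6%, 6.95% higher and 4.66% lower), with a median of 0.47 and 25 above 0. After glucose 2 were higher and none lower (8.3%, 4.39% higher and 3.91% lower), a share near that of all genes, with a median of 0.15 that ran from -0.02 without IR.KO_GTT_667 to 0.25 without IR.fl_GTT_691. Members without overlap between the groups numbered 10 fasted (7.17% of all genes), 9 refed (7.57%) and 6 after glucose (8.1%), all higher in LIRKO. The 6 fasted genes were Acot2, Slc22a5, Ehhadh, Acadl, Vnn1 and Acot1, and the 14 refed genes were Ehhadh, Acot2, Acadl, Cyp4a10, Cd36, Cyp4a14, Eci1, Cpt1a, Hadhb, Acot1, Eci2, Acot3, Etfdh and Bdh1. After glucose they were Acot2 and Bdh1.

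The number of members called in LIRKO moved with single libraries. The 14 refed calls became 6 without IR.fl_Refed_562, 7 without IR.KO_Refed_553, 8 without IR.KO_Refed_558 and 9 without IR.fl_Refed_566. They became 7 with no array block and 3 when only the 2 groups compared were fitted. The 6 fasted calls became 3 without IR.fl_Fast_486 and 2 with only the groups compared. The 2 glucose calls became 1 without IR.KO_GTT_667 or IR.fl_GTT_699 and were joined by Cd36, Fabp1 and Hadh without IR.fl_GTT_659, 5 in all. Within slides the median change was 0.47 and 0.58 fasted, 0.42, 0.50 and 0.25 refed, and 0.58 and -0.01 after glucose.

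Markers of macrophages and of hepatocytes moved with the LIRKO comparison, and their part in these results was not tested. Of 13 macrophage and Kupffer cell markers, 11 were higher in refed LIRKO livers (median 1.28), and their mean level ran from 9.13 to 9.23 there and from 7.86 to 8.08 in refed IR floxed livers. In fasted LIRKO livers limma called 0 of the 13 (median 0.32), and after glucose 1 was higher (median 0.45). Of 10 hepatocyte markers, 1 was lower fasted (median -0.15), 2 refed (-0.28) and 4 after glucose (-0.71). Over all genes 3.92%, 4.66% and 3.91% were lower in these states. Alb, Serpina1a and Cyp2e1 averaged 15.79, 15.82 and 15.80, at or near the top of the scale, so their changes may be compressed. Refed, 1 of 8 endothelial and 2 of 9 stellate cell markers were higher, and of 7 lymphocyte markers 1 was higher and 1 lower (6.95% and 4.66% of all genes). In whole liver, fewer cells of a type and less RNA per cell cannot be told apart.

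The receptor itself did not pass the test anywhere. Ppara read 11.56, 12.17, 11.99 and 12.62 in fasted IR floxed livers and 12.45, 12.48, 11.90 and 11.15 in refed ones, which overlap, and the change was -0.04 ± 0.23 (adjusted p = 0.979). Its values were 12.15, 12.95 and 12.84 in fasted and 11.52, 11.57 and 11.92 in refed IR/FoxO1 floxed livers, which do not overlap, and the change of -0.83 ± 0.27 did not pass (adjusted p = 0.0903, and -0.66 with 0.383 without IRF.fl_Fast_523). LIRKO against IR floxed livers differed by 0.09 ± 0.25 fasted and -0.34 ± 0.23 refed. Creb3l3, a liver transcription factor that works with PPARalpha on fasting genes, changed by -0.48 to -0.25 on refeeding in the 4 genotypes, with adjusted p from 0.0533 to 0.36.

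Among the genes of uptake, binding and activation, Slc22a5 and Cd36 moved. Slc22a5, the plasma membrane importer of carnitine, read 9.30, 9.57 and 8.89 in fasted LIRKO livers and 8.08, 8.31, 8.27 and 8.49 in fasted IR floxed livers. Every LIRKO value lay above every control value, by 1.09 ± 0.22 (2.14-fold, adjusted p = 0.00182), and the call held without any 1 of the 7 mice. On refeeding it fell in LIRKO livers to 8.20, 8.27, 8.17 and 8.12, again without overlap (-1.08 ± 0.23, adjusted p = 0.00983, and 0.0685 without IR.KO_Fast_505 or 0.0664 without IR.KO_Fast_545). In refed IR floxed livers it read 8.27, 8.04, 7.29 and 7.09, which overlap the refed LIRKO values (0.59 ± 0.20, adjusted p = 0.0517). It fell in IR/FoxO1 floxed livers from 8.35, 8.40 and 8.17 to 7.16, 7.59 and 7.31 (-0.86 ± 0.23, adjusted p = 0.0319). That call was lost without IRF.fl_Fast_523 (-0.79, adjusted p = 0.155) and without IRF.fl_Fast_516 (0.13), IRF.fl_Refed_467 (0.146) or IRF.fl_Refed_473 (0.156).

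Cd36, a transporter of long-chain fatty acids that macrophages also carry, read 7.25, 7.64, 7.17 and 7.20 in refed LIRKO livers and 6.45, 6.69, 6.96 and 6.57 in refed IR floxed livers. The groups did not overlap and differed by 0.62 ± 0.16 (1.54-fold, adjusted p = 0.00784), and the call held without any 1 of the 8 mice. Fasted, the same difference was 0.44 ± 0.17 (adjusted p = 0.121), and after glucose it was 0.52 ± 0.18 (adjusted p = 0.0723), also without overlap. The macrophage markers given above were higher in the same refed livers, and their part in the Cd36 value was not tested. Fabp1, the abundant fatty acid binding protein of liver, was at the top of the scale in all 3 fasted and all 4 refed LIRKO libraries. Its differences from IR floxed livers, 0.89 fasted and 0.73 refed, may be compressed, with 1 of 4 fasted and 2 of 4 refed control libraries at the top as well, and neither passed (adjusted p = 0.0807 and 0.107).

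**Figure D3:**
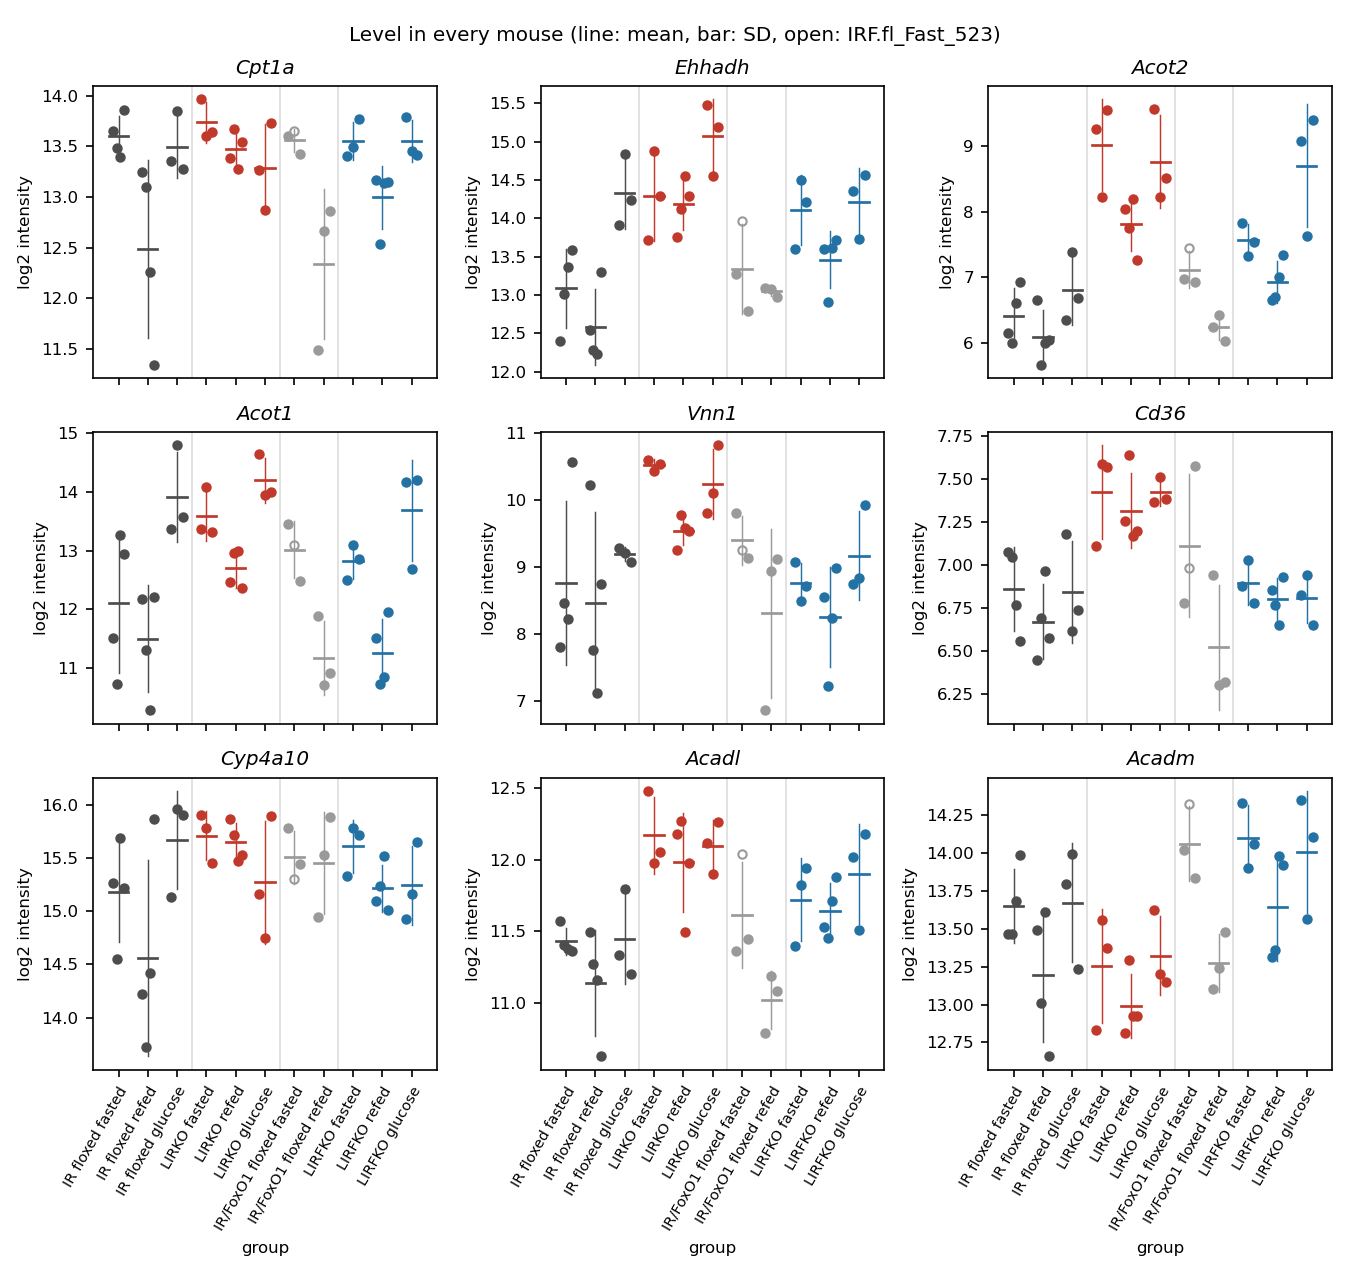
Values of selected genes in each library, in log2 intensity, by genotype and treatment, with the group mean (line), SD (bar) and IRF.fl_Fast_523 (open). Acot2 lies higher in LIRKO than in IR floxed livers in all 3 states, and Cpt1a is low in refed control livers, with single values down to 11.35.

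In the carnitine shuttle, Cpt1a passed the test on refeeding and against floxed controls. Cpt1a is the enzyme of the outer mitochondrial membrane that commits long-chain fatty acids to oxidation. It read 13.65, 13.49, 13.39 and 13.85 in fasted IR floxed livers and 13.24, 13.10, 12.26 and 11.35 in refed ones, so all 4 refed values lay below the lowest fasted value, with a wide spread among them. It fell by 0.94 ± 0.26 on the log2 scale (adjusted p = 0.0361). The call was lost without IR.fl_Refed_566 (change -0.65, adjusted p = 0.147), IR.fl_Refed_562 (0.115), IR.fl_Fast_552 (0.103), IR.fl_Fast_486 (0.0886) or IR.fl_Fast_491 (0.0728). In IR/FoxO1 floxed livers it went from 13.60, 13.65 and 13.43 to 11.49, 12.66 and 12.86 (-1.04 ± 0.29, adjusted p = 0.0454), a call lost without any 1 of the 6 mice, up to an adjusted p of 0.318 without IRF.fl_Refed_467 and 0.156 without IRF.fl_Fast_523. LIRKO livers read 13.96, 13.60 and 13.64 fasted and 13.39, 13.67, 13.28 and 13.54 refed (-0.25 ± 0.29, adjusted p = 0.854). The refed LIRKO values lay just above all refed IR floxed values, by 0.94 ± 0.25 (1.92-fold, adjusted p = 0.0131, and 0.0825 without IR.fl_Refed_562 or 0.0713 without IR.fl_Refed_566). All 11 Cpt1a probes were called in that comparison, from 0.858 to 0.995, against 5 of 11 on refeeding of IR floxed and 3 of 11 of IR/FoxO1 floxed livers. The refeeding responses of LIRKO and IR floxed livers differed by 0.70 ± 0.37, which did not pass (adjusted p = 0.691).

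The other shuttle genes stayed under the threshold against floxed controls. Slc25a20, the carrier of acylcarnitines across the inner membrane, was lower without overlap in both refed control lines, at -0.38 and -0.42, and did not pass (adjusted p = 0.177 and 0.195, the latter -0.35 with 0.501 without IRF.fl_Fast_523). Cpt2, which re-forms acyl-CoA inside the mitochondrion, changed by -0.20 to -0.40 on refeeding in the 4 genotypes, and Crat, which handles short acyl groups, by -0.40 to -0.45, none past the threshold.

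Among the enzymes of the first mitochondrial step, Acadl was higher in LIRKO livers, and Acadm did not pass. Acadl, the long-chain acyl-CoA dehydrogenase, read 12.48, 11.98 and 12.05 in fasted LIRKO and 11.57, 11.41, 11.38 and 11.36 in fasted IR floxed livers, without overlap (0.81 ± 0.20, adjusted p = 0.0136, and 0.173 without IR.KO_Fast_505). Refed, it read 12.18, 12.27, 11.50 and 11.98 against 11.49, 11.27, 11.16 and 10.63. That difference was 0.88 ± 0.19 (1.84-fold, adjusted p = 0.00195) and held without any 1 of the 8 mice. Acadm, the medium-chain enzyme, differed between LIRKO and IR floxed livers by -0.42 ± 0.22 fasted and -0.20 ± 0.20 refed (adjusted p = 0.301 and 0.687). Etfdh passes the electrons of these dehydrogenases to the respiratory chain. On refeeding of IR floxed livers it went from 13.06, 12.99, 13.48 and 13.27 to 12.88, 12.48, 12.73 and 12.60 and fell by 0.53 ± 0.15 (adjusted p = 0.0465), a call lost without any 1 of the 8 mice, up to 0.259 without IR.fl_Fast_542. In refed LIRKO livers it read 13.22, 13.21, 12.91 and 12.83, which overlaps the refed IR floxed values, and was higher by 0.47 ± 0.15 (adjusted p = 0.0372), lost without 5 of the 8 mice, up to 0.135 without IR.fl_Refed_508. Acadvl and Acads, the very-long-chain and short-chain enzymes, passed in no comparison with floxed controls.

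For the later mitochondrial steps, of the 2 neighbours with the shared interval only Hadhb passed. Hadhb read 13.24, 13.61, 13.01 and 13.19 in refed LIRKO and 12.87, 12.95, 12.34 and 12.65 in refed IR floxed livers. The groups did not overlap and differed by 0.63 ± 0.17 (1.55-fold, adjusted p = 0.016), and the call was lost without IR.fl_Refed_562 (0.131), IR.KO_Refed_558 (0.0722) or IR.KO_Refed_553 (0.0555). Hadha read 9.89, 9.56, 10.13 and 10.11 against 10.06, 9.79, 9.36 and 8.99, which overlap (0.42 ± 0.16, adjusted p = 0.0848). Fasted, Hadhb differed by 0.57 ± 0.19 and Hadha by 0.49 ± 0.17, both without overlap and neither past the threshold (adjusted p = 0.0658 and 0.0758). A difference between the 2 genes was not tested. Hadh and Acaa2, the dehydrogenase and the thiolase of the last steps, passed in none of these comparisons.

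Eci1 and Eci2, isomerases that prepare unsaturated fatty acids for oxidation, were higher in refed LIRKO than in refed IR floxed livers. Eci1 read 13.50, 13.39, 13.60 and 13.19 in refed LIRKO and 13.10, 13.07, 12.61 and 13.10 in refed IR floxed livers, without overlap. It was higher by 0.50 ± 0.13 (adjusted p = 0.0126, and 0.174 without IR.fl_Refed_562 or 0.1 without IR.KO_Refed_553). Eci2 read 14.17, 14.17, 13.74 and 14.26 against 13.94, 14.01, 13.38 and 13.14, which overlap through the lowest LIRKO value, and was higher by 0.56 ± 0.17 (adjusted p = 0.0251), lost without 5 of the 8 mice, up to 0.168 without IR.fl_Refed_562. Eci2 also fell on refeeding of IR/FoxO1 floxed livers, from 13.92, 14.35 and 14.09 to 13.04, 13.15 and 13.39, without overlap (-0.83 ± 0.19, adjusted p = 0.0133). That call was lost without IRF.fl_Fast_523 (-0.70, adjusted p = 0.118), IRF.fl_Refed_467 (0.0729) or IRF.fl_Refed_473 (0.0545). Decr1 and Ech1, the reductase and a dienoyl-CoA isomerase, passed in no comparison with floxed controls.

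In the peroxisome, Ehhadh was higher in LIRKO than in IR floxed livers, and Pex11a fell on refeeding of LIRKO livers. Ehhadh, the peroxisomal bifunctional enzyme of beta-oxidation and a classical PPARalpha target, read 13.71, 14.88 and 14.29 in fasted LIRKO livers and 12.40, 13.01, 13.36 and 13.58 in fasted IR floxed livers. It was higher without overlap by 1.28 ± 0.32 (adjusted p = 0.0115, and 0.0996 without IR.fl_Fast_486 or 0.0594 without IR.KO_Fast_545). Refed, it read 13.76, 14.12, 14.55 and 14.29 against 12.54, 12.28, 12.23 and 13.29. This difference of 1.68 ± 0.29 (3.21-fold, adjusted p = 0.000206) held without any 1 of the 8 mice and was 1.38, 1.26 and 2.01 within 3 slides. After glucose it was 0.75 ± 0.34 (adjusted p = 0.198), with LIRKO livers at 15.48, 14.55 and 15.19 and IR floxed livers at 13.91, 14.84 and 14.24.

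Pex11a, a membrane protein that divides peroxisomes, fell on refeeding of LIRKO livers from 12.93, 13.09 and 12.64 to 11.81, 11.67, 11.71 and 11.61. The refed values were tight and far below the fasted ones, by 1.26 ± 0.29 (adjusted p = 0.0202), and all 10 of its probes were called. The call was lost without IR.KO_Fast_505 (0.0952), IR.KO_Fast_545 (0.0861), IR.KO_Refed_558 (0.0555) or IR.KO_Refed_565 (0.0532). In the other genotypes its change was -0.80 ± 0.26, -0.76 ± 0.29 and -0.95 ± 0.27, with adjusted p of 0.0845 in IR floxed, 0.185 in IR/FoxO1 floxed (-1.04 with 0.12 without IRF.fl_Fast_523) and 0.0689 in LIRFKO livers. In IR floxed and in LIRFKO livers 7 of its 10 probes were called, although the brightest was not. Between LIRKO and IR floxed livers Pex11a differed by -0.03 ± 0.28 fasted and -0.49 ± 0.25 refed and did not pass. Acaa1b, a peroxisomal thiolase, passed in no comparison with floxed controls or between feeding states.

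The omega hydroxylases Cyp4a10 and Cyp4a14, among the most responsive PPARalpha targets in mouse liver, were higher in refed LIRKO livers, at or near the top of the scale. Cyp4a10 read 15.87, 15.72, 15.47 and 15.53 there and 14.22, 13.72, 14.42 and 15.87 in refed IR floxed livers. The groups overlap through IR.fl_Refed_566, and the difference was 1.19 ± 0.29 (adjusted p = 0.00717), which held without any 1 of the 8 mice but was -0.40 within the slide that holds that library. Of its 3 probes 2 were called, and the lowest gave 0.43. Cyp4a14 was at the top of the scale in all 4 refed LIRKO libraries and read 13.94, 13.73, 15.07 and 15.87 in refed IR floxed livers. Its difference of 1.15 ± 0.30 may be compressed (adjusted p = 0.0097, and 0.0625 without IR.fl_Refed_508 or 0.0565 without IR.fl_Refed_506). The Cyp4a genes are close relatives, so probes may share signal between them.

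Among the acyl-CoA thioesterases, Acot2 was higher in LIRKO livers in all 3 states. These enzymes split acyl-CoA into free fatty acid and coenzyme A, and Acot2, Acot1, Acot4 and Acot3 follow each other on the + strand of chromosome 12, with 64283 bases of GRCm38.p6 from the first to the last start. Their sequences are close, above all those of Acot1 and Acot2, so cross-hybridisation between their probes cannot be told apart from each gene's own signal. Acot2, the mitochondrial enzyme, read 9.27, 8.22 and 9.55 in fasted LIRKO livers and 6.14, 5.99, 6.61 and 6.92 in fasted IR floxed livers. Refed, it read 8.05, 7.76, 8.19 and 7.26 against 6.66, 5.67, 6.00 and 6.04. After glucose it read 9.57, 8.22 and 8.51 against 6.34, 7.38 and 6.69. LIRKO values lay above all control values in each state, by 2.70 ± 0.36 fasted (6.51-fold, adjusted p = 2.02e-05), 1.88 ± 0.33 refed (3.67-fold, adjusted p = 0.000255) and 1.95 ± 0.38 after glucose (3.86-fold, adjusted p = 0.00166). All 3 calls held without any 1 mouse. The lowest IR floxed values lay near the column medians of 5.72 to 5.78, so these differences may be compressed at the low end of the scale.

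Acot1, the cytosolic enzyme, varied more within groups. It read 13.37, 14.08 and 13.32 in fasted LIRKO and 11.51, 10.73, 13.27 and 12.94 in fasted IR floxed livers, which come close without overlap (1.68 ± 0.49, adjusted p = 0.0318). Refed, it read 12.46, 12.96, 13.01 and 12.37 against 12.19, 11.31, 10.28 and 12.22, also without overlap (1.56 ± 0.45, adjusted p = 0.0212). The fasted call was lost without 5 of the 7 mice, up to 0.137 without IR.fl_Fast_486, and the refed call without 5 of the 8, up to 0.179 without IR.fl_Refed_562. Of the members called on refeeding, Acot1 had the largest change. In IR/FoxO1 floxed livers it fell from 13.46, 13.10 and 12.49 to 11.89, 10.71 and 10.91, without overlap (-2.21 ± 0.52, 4.63-fold lower, adjusted p = 0.0141). That call was lost without IRF.fl_Fast_523 (-2.25, adjusted p = 0.0574), IRF.fl_Fast_516 (0.119), IRF.fl_Refed_472 (0.0648) or IRF.fl_Refed_473 (0.0752). Acot3, a peroxisomal member, read 8.98, 10.10, 7.83 and 9.60 in refed LIRKO and 7.53, 7.65, 7.89 and 6.76 in refed IR floxed livers. It was higher by 1.60 ± 0.50 (adjusted p = 0.0333), with overlap, with 1 of its 2 probes called, and with the call lost without 7 of the 8 mice, up to 0.14 without IR.KO_Refed_558. Acot4, also peroxisomal, passed in none of these comparisons (0.90 ± 0.34 fasted, 0.31 ± 0.32 refed).

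Bdh1 and Vnn1 were also higher in LIRKO than in IR floxed livers. Bdh1 interconverts the ketone bodies acetoacetate and beta-hydroxybutyrate. After glucose it read 13.76, 13.14 and 13.38 in LIRKO and 12.86, 12.21 and 10.97 in IR floxed livers, without overlap (1.61 ± 0.40, 3.06-fold, adjusted p = 0.00992, and 0.156 without IR.fl_GTT_699 or 0.0952 without IR.KO_GTT_667). Refed, it read 13.23, 13.46, 12.86 and 13.47 against 12.83, 13.01, 12.14 and 10.78, with overlap, and was higher by 1.06 ± 0.34 (adjusted p = 0.0403), lost without 5 of the 8 mice, up to 0.198 without IR.fl_Refed_566, and 2 of its 3 probes were called. Vnn1, the pantetheinase that recycles pantothenate, read 10.60, 10.44 and 10.54 in fasted LIRKO and 7.80, 8.46, 8.22 and 10.56 in fasted IR floxed livers. IR.fl_Fast_552 alone reached the LIRKO level, and the difference was 2.09 ± 0.57 (adjusted p = 0.0213), lost without 5 of the 7 mice, up to 0.105 without IR.fl_Fast_486. Refed, the difference was 0.95 ± 0.52 (adjusted p = 0.304).

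LIRFKO livers had no member past the threshold against their own controls. limma called 0 of 33 members between LIRFKO and IR/FoxO1 floxed livers when fasted (0.00445% of all genes), with a median of 0.13, 1 member at an unadjusted p under 0.05, and 1 lower without overlap, Vnn1 (3.82% of all genes). Refed, it called 0 (0.378% of all genes), with a median of 0.28, 6 at an unadjusted p under 0.05, and 7 members higher without overlap (5.69% of all genes) against 1 lower (5.47%). Those 7 were Acadl, Acot2, Decr1, Eci2, Etfdh, Slc22a5 and Slc25a20, from 0.28 to 0.79, and Pex11a was the lower one. Without IRF.fl_Fast_523 the fasted count stayed 0 with 5 at an unadjusted p under 0.05, the median was 0.23, and 6 members lay higher (8.43% of all genes) and 2 lower (10.1%) without overlap. A count of 0 does not show that these livers are alike, since the fasted comparison called only 1 of 22485 genes.

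**Figure D4:**
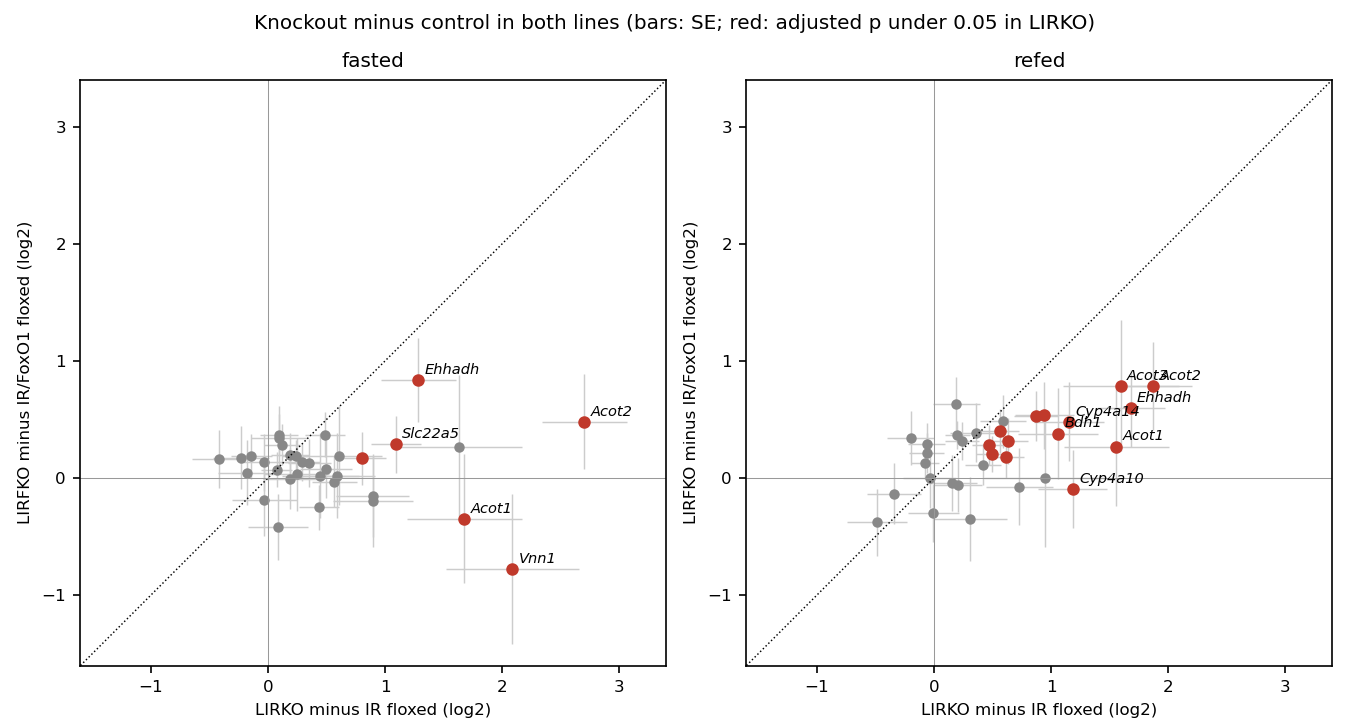
Change of each of the 33 genes in log2 units on loss of the insulin receptor alone (LIRKO minus IR floxed, horizontal axis) and with FoxO1 (LIRFKO minus IR/FoxO1 floxed, vertical axis), fasted and refed, with SE bars, the diagonal, and genes called in LIRKO in red. Acot2 lies at 2.70 and 0.48 fasted and at 1.88 and 0.79 refed.

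Without IRF.fl_Fast_523 the fasted LIRFKO difference of Acot2 was 0.62. The difference between these 2 knockout effects was tested directly. Fasted, 1 member passed (0.934% of all genes), and it was Acot2. Its LIRFKO effect of 0.48 ± 0.41 stood below its LIRKO effect, a difference of -2.22 ± 0.51 (adjusted p = 0.0298). The call was lost without 8 of the 13 mice, among them IRF.fl_Fast_523 (-2.10, adjusted p = 0.0832) and IR.KO_Fast_550 (0.144). Acot2 read 7.83, 7.32 and 7.54 in fasted LIRFKO and 6.98, 7.45 and 6.92 in fasted IR/FoxO1 floxed livers, where 7.45 is IRF.fl_Fast_523. Vnn1 had the next value, -2.86 ± 0.81 (adjusted p = 0.0889, and -2.94 with 0.15 without IRF.fl_Fast_523). Refed, 0 members passed (1.32% of all genes were called), 3 had an unadjusted p under 0.05, and the smallest adjusted p was 0.166, for Cyp4a10 at -1.28 ± 0.44.

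LIRFKO and LIRKO livers were also set side by side, where the loss of FoxO1 and the line of mice cannot be told apart. Fasted, Acadm was higher in LIRFKO and Acot2 and Vnn1 were lower (6.52% of all genes were called, 3.29% higher and 3.23% lower). Refed, Acadm was higher and Cd36 and Acot1 were lower (8.09%, 3.66% and 4.43%), and after glucose Acadm and Cpt2 were higher (7.57%, 3.85% and 3.73%). In each state the share of members called was near that of all genes, so these counts do not set the list apart. Acadm read 14.33, 13.90 and 14.06 in fasted LIRFKO and 12.83, 13.56 and 13.38 in fasted LIRKO livers, without overlap (0.94 ± 0.24, adjusted p = 0.0151). Refed, Acadm read 13.32, 13.36, 13.98 and 13.92 against 12.81, 13.30, 12.92 and 12.92, without overlap (0.69 ± 0.21, adjusted p = 0.0359, and 0.67 with 0.0637 with slide as a block). After glucose it read 14.35, 13.57 and 14.11 against 13.62, 13.20 and 13.15, with overlap (0.84 ± 0.24, adjusted p = 0.0272). Its fasted call was lost without IRF.KO_Fast_518 (0.166), IR.KO_Fast_505 (0.0852) or IR.KO_Fast_550 (0.0888), the refed call without 6 of 8 mice, and the glucose call without 4 of 6. Acadm read 14.02, 14.33 and 13.83 in fasted IR/FoxO1 floxed livers and 13.47, 13.47, 13.69 and 13.99 in fasted IR floxed livers, and these control lines overlap (0.36 ± 0.22, adjusted p = 0.773, and 0.27 with 0.979 without IRF.fl_Fast_523). Fasted Vnn1 read 9.07, 8.49 and 8.72 in LIRFKO livers, below all fasted LIRKO values (-2.02 ± 0.61, adjusted p = 0.0422, and 0.163 without IR.KO_Fast_550). Fasted Acot2, whose values are given above, also lay below without overlap (-1.40 ± 0.39, adjusted p = 0.0249, and 0.2 without IR.KO_Fast_550). Refed Cd36 read 6.85, 6.77, 6.65 and 6.93 in LIRFKO livers, below all refed LIRKO values (-0.52 ± 0.16, adjusted p = 0.0356, and 0.155 without IR.KO_Refed_558). Of the 13 macrophage and Kupffer cell markers 8 were lower in the same comparison (median -0.74), with a mean level from 8.22 to 8.76 in refed LIRFKO libraries, and their part in the Cd36 value was not tested. Refed Acot1 read 11.51, 10.73, 10.86 and 11.95 there, again without overlap (-1.51 ± 0.45, adjusted p = 0.0369, and 0.128 without IRF.KO_Refed_469). After glucose Cpt2 read 13.67, 12.98 and 13.04 in LIRFKO and 12.85, 12.72 and 12.70 in LIRKO livers, without overlap (0.59 ± 0.18, adjusted p = 0.0441, and 0.451 without IRF.KO_GTT_725). Of the 2 Cpt2 probes 1 was called. Between the control lines limma called 0 members fasted (0.0356% of all genes, 0.0222% higher, median 0.20, 6 unadjusted, and median 0.18 with 2 unadjusted without IRF.fl_Fast_523) and 0 refed (0.0845%, 0.0712% higher, median 0.06, 1 unadjusted).

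Other genes of the same pathways moved in both directions. A further list of 90 genes for nuclear receptors and coactivators, peroxisomes, mitochondrial oxidation, omega hydroxylation, ketogenesis, lipid droplets and secreted targets had 83 measured. On refeeding 3 rose and 8 fell in IR floxed livers (2.12% and 1.49% of all genes), 3 and 4 in IR/FoxO1 floxed (2.02% and 1.52%, and 1 and 3 without IRF.fl_Fast_523), 1 and 3 in LIRKO (0.983% and 0.867%), and 1 and 5 in LIRFKO livers (0.987% and 0.823%). Angptl4, a secreted inhibitor of lipoprotein lipase and a PPAR target, fell, with changes of -1.81 ± 0.35 in IR floxed, -2.34 ± 0.40 in IR/FoxO1 floxed and -1.49 ± 0.37 in LIRFKO livers (adjusted p = 0.0032, 0.00125 and 0.034). Fgf21, a fasting hormone made by the liver under PPARalpha, fell in IR/FoxO1 floxed (-2.33 ± 0.58) and LIRKO livers (-2.24 ± 0.57) (adjusted p = 0.0198 and 0.0393, the former -1.82 with 0.186 without IRF.fl_Fast_523). The peroxisomal coenzyme A hydrolase Nudt7 rose by 2.38 ± 0.27, 2.86 ± 0.31 and 1.99 ± 0.29 in IR floxed, IR/FoxO1 floxed and LIRFKO livers. Without IRF.fl_Fast_523 the IR/FoxO1 floxed changes were -2.55 for Angptl4 (adjusted p = 0.00461) and 2.97 for Nudt7 (adjusted p = 8.64e-05).

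Against IR floxed livers, LIRKO had 7 of these 83 higher and 10 lower fasted (4.14% and 3.92% of all genes), 16 and 11 refed (6.95% and 4.66%), and 5 and 16 after glucose (4.39% and 3.91%), while LIRFKO had 0 either way against its controls fasted and refed (3 and 9 at an unadjusted p under 0.05). Pdk4, the kinase that shuts off pyruvate oxidation, was higher in fasted LIRKO livers by 3.78 ± 0.33 (13.7-fold, adjusted p = 4.82e-08). Cpt1b, the muscle-type counterpart of Cpt1a, was higher by 2.13 ± 0.31 (adjusted p = 7.69e-05), and Plin2, a lipid droplet coat protein, by 1.74 ± 0.32 (adjusted p = 0.00094). These 3 also passed the test of a difference between the knockout effects, at -3.06 ± 0.47, -2.09 ± 0.45 and -1.86 ± 0.46. Without IRF.fl_Fast_523 Pdk4 (-2.97, adjusted p = 0.00251) and Cpt1b (-2.15, 0.0268) passed and Plin2 did not (-1.57, 0.147). In fasted livers Pdk4 read 10.8 to 11.5 in LIRKO, 6.49 to 7.82 in IR floxed, 7.89 to 8.51 in LIRFKO and 6.52 to 7.80 in IR/FoxO1 floxed libraries. On refeeding Pdk4 fell in LIRKO (-3.31 ± 0.35, adjusted p = 2.07e-06) and LIRFKO livers (-1.36 ± 0.32, adjusted p = 0.0277). It passed in neither control line. Its refeeding responses in LIRKO and IR floxed livers differed by -2.35 ± 0.44 (limma, adjusted p = 0.0221). No other gene of the 83 passed that test (0.165% of all genes called).

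The omega hydroxylases split in direction. Cyp4a12a was lower in LIRKO livers, at -2.55, -3.97 and -3.00 fasted, refed and after glucose, and so was Cyp4a12b, at -2.52, -3.57 and -2.77, while Cyp4a31 was higher when refed (1.23 ± 0.31, adjusted p = 0.00861, with overlap), as were Cyp4a10 and Cyp4a14. Refed Cyp4a12a values ran from 7.64 to 9.30 in LIRKO and from 11.9 to 13.3 in IR floxed livers, so the groups lie far apart. In LIRFKO livers Cyp4a12a ran from 11.9 to 12.5 refed, and its knockout effects differed by 3.19 ± 0.53 (adjusted p = 0.00102). Hsd17b10, a mitochondrial enzyme of branched-chain and short-chain oxidation, was lower in LIRKO livers in all 3 states, at -1.35 ± 0.28, -0.99 ± 0.25 and -1.59 ± 0.29 (adjusted p = 0.0025, 0.0085 and 0.000928).

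**Figure D5:**
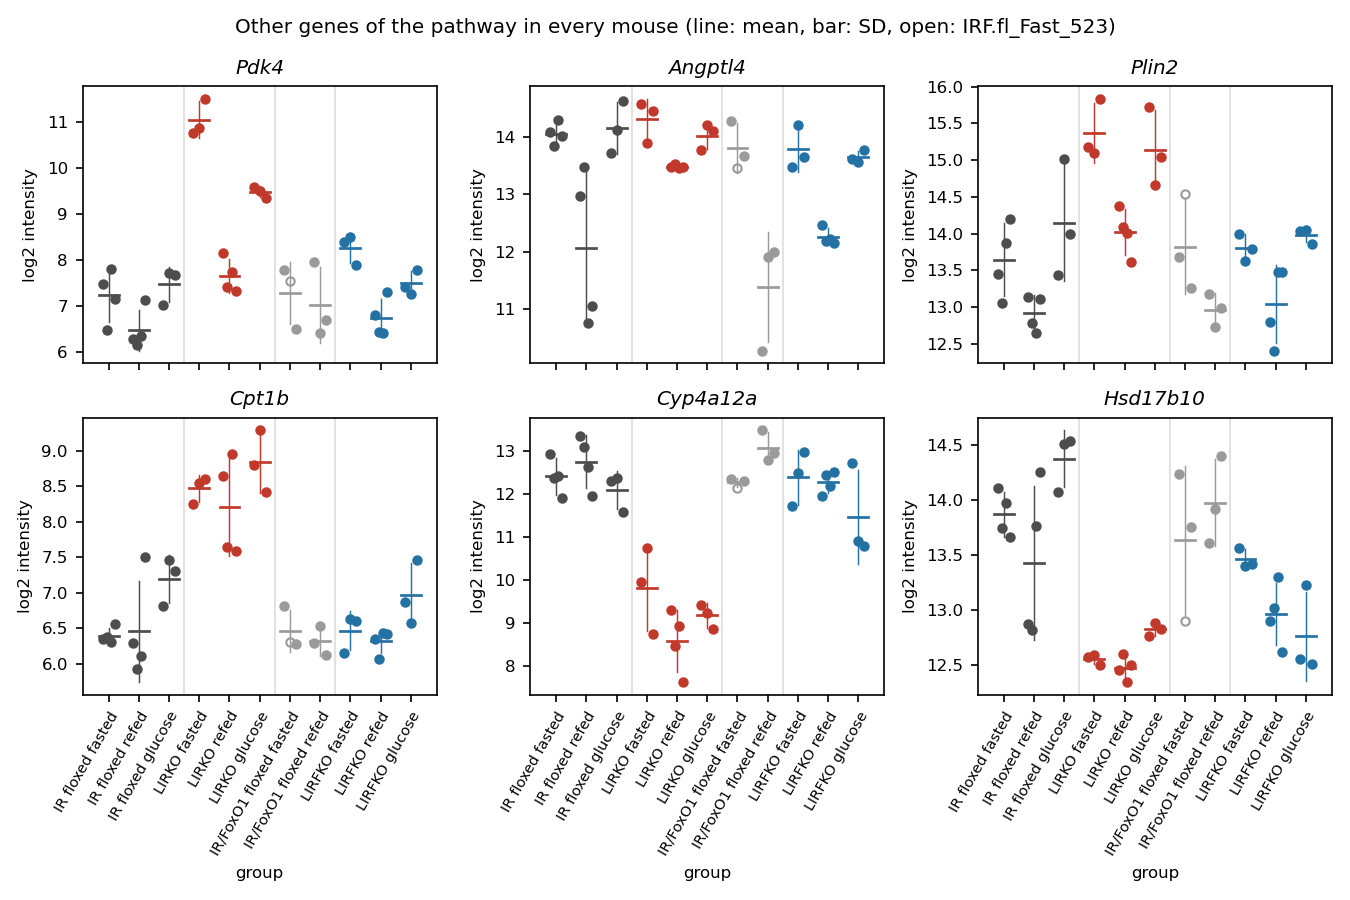
Values of selected further pathway genes in each library, in log2 intensity, by genotype and treatment, with the group mean (line), SD (bar) and IRF.fl_Fast_523 (open). Pdk4 is highest in fasted LIRKO livers (10.8 to 11.5), and Cyp4a12a is lower in LIRKO than in IR floxed livers in all 3 states.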

How the data were processed

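The authors deposited log2 intensities of single dye channels for 38 libraries from 20 two-colour Agilent arrays on 5 slides, and 37 fall into 11 groups of 3 or 4 separate mice. R 3.1.0 and limma 3.20.1 are named per the submitters' processing notes. The normalization used was not given in the sources used here, and the log2 scale was read from the range of the deposited values. The title of IRF.KO_GTT_724 gives glucose while its other labels give a fast, so it entered no comparison.

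The annotation gave 1 gene for 33026 of 45220 features and no gene for 12194. The brightest probe stood for each gene (9 members had several), with no filter on level. The fit used limma 3.58.1 and statmod 1.5.0 under R 4.3.3. Each group had its own mean over all 37 libraries, the dye entered as a covariate, and libraries of the same array were allowed to correlate (estimated at 0.358, with 25 residual and 1.97 prior degrees of freedom). In all, 24 comparisons were tested, each adjusted by Benjamini and Hochberg over 22485 genes at a threshold of 0.05. Group errors are SD, errors of changes are SE, and the number of mice limits precision. The fit was tested on simulated data.

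Every member past the threshold is named with its values, the rest are given by range and count, and further pathway genes are named where they passed in the comparison described, with Pdk4, Angptl4, Fgf21, Plin2 and Ppargc1a open to naming in any case. Members and lists were chosen with earlier results of these data known. Alternatives were a slide block, no array block, no dye term, the mean over probes, each probe alone, genes above the median level, quantile normalization, centred columns, a robust trended variance, only the groups compared, no IRF.fl_Fast_523, and each library left out.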

Additional observations from a re-analysis of the deposited data

Results flagged for a closer look

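In groups of 4, single libraries stood apart from the other 3 for 10 of 136 sets of values examined, and chance sets apart about 1 in 20 (gap over range above Dixon's critical value of 0.829). IRF.KO_Refed_469 was lowest for Fabp1 at 15.06 (others at 15.88 or above), Cpt1a at 12.53 (others 13.14 to 13.17) and Ehhadh at 12.91 (others 13.60 to 13.72). IRF.KO_Refed_524 was highest for Acot3 at 10.24 (others 8.88 to 8.93) and Acot4 at 10.07 (others 8.87 to 8.99). IR.KO_Refed_564 was lowest for Acaa2 at 15.32 (others 15.81 to 15.87) and Eci2 at 13.74 (others 14.17 to 14.26). Creb3l3 was highest in IR.KO_Refed_558 at 13.94 (others 13.55 to 13.58), Ech1 in IR.fl_Fast_552 at 13.62 (others 12.89 to 12.93), and Eci1 was lowest in IR.fl_Refed_562 at 12.61 (others 13.07 to 13.10).

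The fasted knockout effect on Acot2 differed between the lines by -2.22 ± 0.51 (limma, adjusted p = 0.0298), with LIRKO above its controls by 2.70 and LIRFKO above its own by 0.48.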

How the results depend on the processing

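No paired analysis was possible because each mouse number occurs in 1 group. No change of a member past the threshold reversed its sign under any alternative run. Differences near 0 did so between probes, as for fasted LIRKO against IR floxed livers in Ppara (0.09, and -0.08 to 0.28 over 3 probes) and Pex11a (-0.03, and -0.06 to 0.07 over 10 probes). With only the groups compared, members called were 0 rather than 2 on refeeding of IR floxed and 1 rather than 4 of IR/FoxO1 floxed livers; LIRKO against IR floxed had 2 rather than 6 fasted, 3 rather than 14 refed and 0 rather than 2 after glucose; LIRFKO against LIRKO had 0 fasted and 0 after glucose; and the fasted knockout difference had 4 rather than 1. The array correlation could not be estimated in most of those fits. Without the array block the counts were 1 and 1 on refeeding of the control lines, 7 and 1 for refed and glucose LIRKO, 0 and 0 for refed and glucose LIRFKO against LIRKO, and 0 for the fasted knockout difference. Without the dye term they were 1 on refeeding of IR floxed livers and 1 refed and 0 after glucose for LIRFKO against LIRKO. A robust trended variance gave 1 on refeeding of IR floxed livers. A slide block lost Etfdh on refeeding of IR floxed livers (adjusted p = 0.0503), Cpt1a on refeeding of IR/FoxO1 floxed livers (0.141), Bdh1 in refed LIRKO livers (0.0613) and refed Acadm between LIRFKO and LIRKO (0.0637), and gave 1 rather than 0 on refeeding of LIRFKO and on glucose in LIRKO and LIRFKO livers. The mean over probes gave 1 on refeeding of LIRFKO and 1 for glucose LIRFKO against LIRKO, and genes above the median level gave 1 on refeeding of LIRFKO and 5 for glucose LIRKO. Without IRF.fl_Fast_523, 0 members were called on refeeding of IR/FoxO1 floxed livers and 0 for the fasted knockout difference.

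Leaving out 1 library gave 0 to 2 members on refeeding of IR floxed, 0 to 4 of IR/FoxO1 floxed and 0 to 2 of LIRKO livers, and 0 to 1 on glucose in LIRKO and in LIRFKO livers. It gave 3 to 8 fasted, 6 to 16 refed and 1 to 5 after glucose for LIRKO against IR floxed livers, and 0 to 3, 0 to 2 and 0 to 3 for LIRFKO against LIRKO. It gave 0 to 1 between refed control lines, 0 to 2 for the fasted and 0 to 1 for the refed knockout difference. The median fasted knockout difference was -0.23, and -0.42 to -0.13 with 1 library left out. Over all genes, fits of only the groups compared called 61 rather than 811 on refeeding of IR floxed, 336 rather than 796 of IR/FoxO1 floxed, 170 rather than 416 of LIRKO and 32 rather than 407 of LIRFKO livers. They called 234 rather than 1813 for fasted, 1539 rather than 2610 for refed and 5 rather than 1866 for glucose LIRKO against IR floxed, 5 rather than 85 for refed LIRFKO against its controls, 44 rather than 1466 fasted and 153 rather than 1703 after glucose for LIRFKO against LIRKO, and 0 rather than 36, 134 and 147 on glucose. They called 813 rather than 210 for the fasted and 541 rather than 297 for the refed knockout difference. Those fits have fewer samples. Without the array block the counts were 61.9% of the 796 for refeeding of IR/FoxO1 floxed livers, 219 for refeeding of LIRFKO, 1221 for glucose LIRKO, 846 for fasted LIRFKO against LIRKO and 88 for the fasted knockout difference, and without IRF.fl_Fast_523 the first and the last of these were 461 genes and 132 genes. Signals near the top of the scale limit what Fabp1, Cyp4a10, Cyp4a14 and Acaa2 can show.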

Other observations

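IRF.KO_GTT_724, whose labels give conflicting treatments, had a median deviation of 0.27 over the 33 members, scaled to the grouped libraries. Its Acot2 read 8.21, above fasted LIRFKO libraries (7.32 to 7.83) and within those given glucose (7.63 to 9.40). Its Acot1 read 13.91, above the fasted range (12.50 to 13.11) and within the glucose range (12.70 to 14.20). Its Cd36 read 7.47, above both ranges (6.78 to 7.03 and 6.65 to 6.94), and its Acot3 read 8.93, below both (9.85 to 11.0 and 9.65 to 10.4). Vnn1 (9.61) and Pex11a (13.27) also lay above the fasted and within the glucose range. Other members lay within the fasted range only. Among them were Slc25a20 at 10.16 (9.63 to 10.48 fasted, 9.46 to 9.99 glucose) and Etfdh at 13.49 (13.39 to 13.88 and 13.66 to 13.80). Ech1 at 13.29 (12.92 to 13.89 and 12.80 to 13.01) was another, so the members were mixed. These are the values of 1 library, and no test was made.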
